A study of Mus musculus with 9 samples.

Results

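Aminoacyl-tRNA synthetases join each amino acid to its transfer RNA, the step that gives the ribosome its building blocks. The genes described here were taken by symbol from the expression tables: a capital letter for the amino acid followed by ars, ars1 or ars2, together with Farsa, Farsb, Eprs and Tarsl2. The rule found 38 of the 24318 genes listed, and no measured value entered it. Symbols that end in 2 name the enzymes of mitochondria, 17 genes here. The other 21 genes serve the cytosol, and Tarsl2, another threonyl enzyme of the cytosol, was counted among them in spite of its last digit. Gars and Kars, counted as cytosolic, are known to provide both compartments. Eprs holds a glutamyl and a prolyl enzyme in a single protein, Farsa and Farsb are the subunits of the cytosolic phenylalanyl enzyme, and Qars has no mitochondrial counterpart.

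RNA-seq was performed on N2A cells, a mouse neuroblastoma line, lipid-transfected (Lipofectamine) with a scramble control siRNA (scramble), an EXOSC3 siRNA (siEXOSC3) or a DDX1 siRNA (siDDX1). EXOSC3 is a cap subunit of the RNA exosome, a ribonuclease complex that processes and degrades RNA, and DDX1 is a DEAD-box RNA helicase that is also known as a partner of the tRNA ligase. Each condition had 3 biological replicates of the same line, with no further treatment in the labels, and the scramble cells carry the wild-type genotype. The comparison of each knockdown with scramble asks which transcripts depend on the depleted protein. Ribosomal RNA was depleted before a nondirectional library preparation, and a read therefore does not show from which strand it came. In RNA from whole cultures, a lower level in every cell and a loss in some of the cells cannot be told apart.

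Values are FPKM, fragments scaled by the authors for transcript length and sequencing depth. A table of 6 libraries was deposited for each knockdown, with the same 3 scramble libraries in both, scaled separately: a scramble library differed between the tables by a median factor of 1.01, and the comparisons are not independent of each other. Exosc3 measured 6.84, 7.68 and 6.01 FPKM in the siEXOSC3 replicates against 45.8, 43.8 and 42.7 in scramble, and Ddx1 measured 28.1, 28.7 and 34.8 FPKM in the siDDX1 replicates against 129.6, 126 and 119 in scramble, 15.5 and 24.4% of the scramble means (limma adjusted p = 1.11e-05 and 9.53e-05). The absolute depth is unknown. Depth relative to scramble replicate 1 was estimated from genes of low level (mean FPKM limit 0.1) and lay between 0.827 and 1.2. Outside scramble replicate 1, 19.1 to 23% of the genes used matched the estimate, which is therefore rough. Of 14 markers of sympathetic and neuronal cells, 12 had a mean of at least 1 FPKM. Markers of other cell types summed to at most 0.138 FPKM per library for astrocytes (Gfap, Aqp4, Slc1a3), 1.83 for immune cells (Ptprc, Aif1, Cd68) and 0.686 for fibroblasts (Col1a1, Dcn), with Aqp4 listed at 0 throughout. The endothelial markers Pecam1 and Cdh5 summed to 3.81 to 9.08 FPKM, nearly all of it Pecam1, with the highest sums in siEXOSC3 (6.15 to 9.08). The summed level of the 14 markers was 669 to 728 FPKM in siEXOSC3 against 482 to 548 in scramble, and 461 to 549 in siDDX1 against 479 to 542. The part of these markers in the results on synthetase genes was not tested.

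In scramble cells the 38 genes covered a wide range of levels, with the cytosolic genes at the top of the order. All 17 mitochondrial genes lay below their cytosolic counterpart, by a ratio, averaged over the 3 libraries, between 3.18 ± 0.231 (Farsa over Fars2) and 239 ± 59.2 (Eprs over Pars2; SD, n = 3 each), with a median of 10.3. Of the 21 cytosolic genes, 20 lay above the highest mitochondrial gene. These levels and the fold changes that follow are per transcript length, so levels of different genes can be set side by side.

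Gars, the glycyl enzyme, was the highest, with 503, 492 and 466 FPKM in scramble replicates 1, 2 and 3. Eprs followed with 457, 455 and 419.7 FPKM, and Aars, the alanyl enzyme, with 327, 314 and 329.6 FPKM. None of these 3 genes overlapped its neighbour in the order. At the low end of the cytosolic genes were Qars, the glutaminyl enzyme, with 38.9, 39.5 and 36 FPKM, Farsa with 31.5, 32.5 and 36.4 FPKM and Tarsl2 with 9.3, 9.29 and 10.3 FPKM. Tars, the main threonyl enzyme, averaged 189.7 ± 4.76 FPKM and Tarsl2 9.64 ± 0.607 FPKM (SD, n = 3 each). The subunits of the phenylalanyl enzyme were unequal too, with Farsb at 99 ± 4.81 FPKM and Farsa at 33.5 ± 2.56 FPKM (SD, n = 3 each).

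Among mitochondrial genes, Yars2, the tyrosyl enzyme, was highest with 30.6, 29.2 and 27.7 FPKM. Rars2, the arginyl enzyme, had 28.8, 27.2 and 29.7 FPKM and overlapped Yars2, and Tars2, the threonyl enzyme, had 26.2, 23.9 and 27.1 FPKM. The lowest were Wars2, the tryptophanyl enzyme, with 3.69, 3.94 and 3.5 FPKM, Ears2, the glutamyl enzyme, with 3.2, 3.4 and 2.92 FPKM, and Pars2, the prolyl enzyme, with 2.13, 1.48 and 2.13 FPKM. Along the whole order of 38 genes, 18 of 37 neighbouring pairs had overlapping scramble values, so the order within such a pair is not set by these data. The coefficient of variation over the 3 scramble libraries ran from 0.886% to 19.6%, with a median of 5.21%, and the widest were those of mitochondrial genes. Of the 38 genes, 12 share exonic bases with another annotated gene, between 0.505% and 22.7% of their own, the most in Iars2, which overlaps Rab3gap2 on the opposite strand, and for these genes the nondirectional reads may include fragments of the neighbour.

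**Figure D1:**
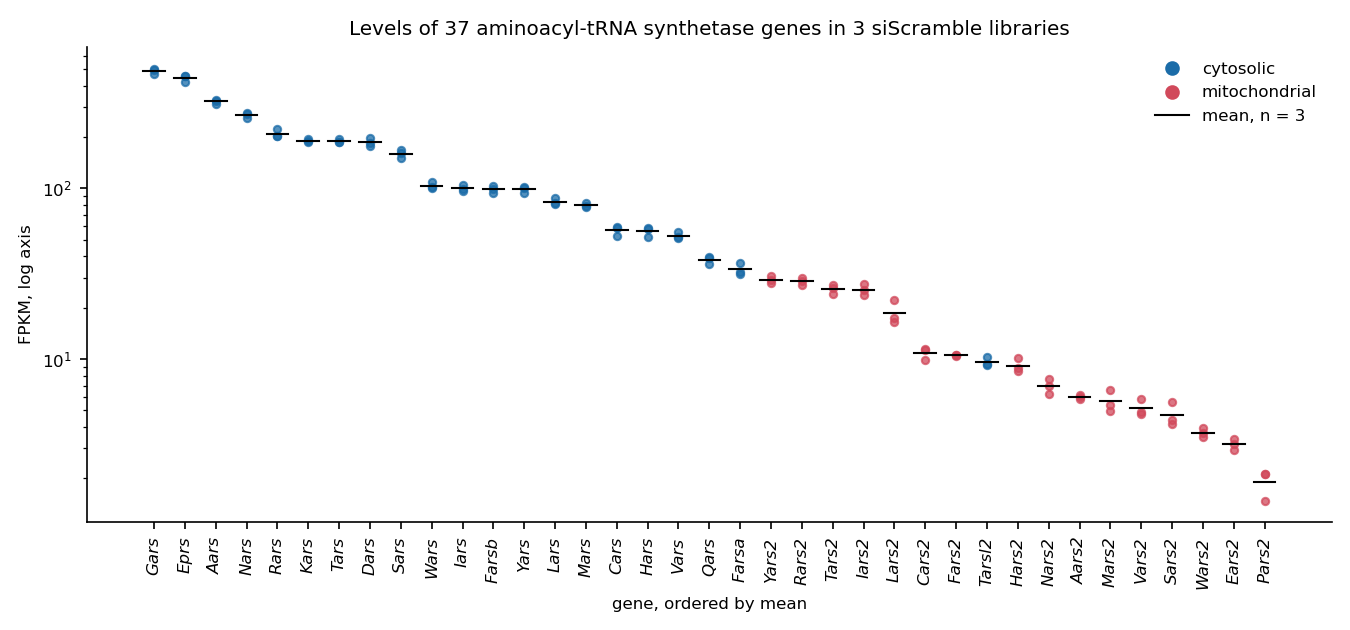
FPKM of 37 of the 38 genes in the 3 scramble libraries of the siEXOSC3 table, on a log axis, ordered by mean; points are libraries, black lines are means and colours give the compartment. The cytosolic genes run from 487 FPKM (Gars) to 9.64 FPKM (Tarsl2), and Tarsl2 is the sole cytosolic gene that lies among the mitochondrial ones.

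Many cytosolic synthetase genes are known targets of ATF4, a transcription factor made when amino acids run short, which binds a composite C/EBP-ATF element. Promoters from RefSeq (GRCm38.p6, 250 bases before to 50 bases after the start) were given for 28 of the 38 genes, 14 cytosolic and 14 mitochondrial, in 29 entries. The core TGATGNAA, searched on both strands, was found in 5 of the 29 entries (17.2%) and in 3.97% of all 32851 promoters of the same length. All 5 belonged to cytosolic genes: Gars, Iars, Yars, Aars and Tars. The other 10 of the 38 genes had no promoter entry under their symbol and were not searched. The E-box CACGTG, which reads the same on both strands and shares no base with the ATF core in these promoters, was found in Aars, Ears2, Farsb, Iars and Tars, also 17.2% of the entries, against 7.15% of all promoters. The 5 promoters with the ATF core are shown because these genes take part in the results below in different ways. Each stretch runs 5′ to 3′ on the strand of the gene, from 120 bases before the start to 30 bases after it, with the match to TGATGNAA or its reverse complement in capitals.
Gars (chr6:55037881-55038030, plus strand): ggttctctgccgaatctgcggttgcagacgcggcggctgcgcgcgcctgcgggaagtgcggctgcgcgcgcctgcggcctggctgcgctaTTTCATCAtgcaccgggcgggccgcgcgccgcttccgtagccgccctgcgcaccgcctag
Iars (chr13:49682010-49682159, plus strand): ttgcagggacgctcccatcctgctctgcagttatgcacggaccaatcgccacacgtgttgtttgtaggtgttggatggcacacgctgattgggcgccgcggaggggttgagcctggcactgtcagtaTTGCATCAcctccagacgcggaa
Yars (chr4:129189783-129189932, plus strand): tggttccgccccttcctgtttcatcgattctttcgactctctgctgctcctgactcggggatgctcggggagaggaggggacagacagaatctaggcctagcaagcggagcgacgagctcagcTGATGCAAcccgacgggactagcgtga
Aars (chr8:111033722-111033871, plus strand): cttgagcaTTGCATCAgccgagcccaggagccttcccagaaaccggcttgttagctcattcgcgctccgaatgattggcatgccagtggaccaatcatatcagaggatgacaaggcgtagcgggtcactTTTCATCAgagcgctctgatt
Tars (chr15:11399629-11399778, minus strand): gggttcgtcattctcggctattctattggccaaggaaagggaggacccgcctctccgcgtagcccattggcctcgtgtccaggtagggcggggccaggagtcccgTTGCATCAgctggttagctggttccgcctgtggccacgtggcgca
The match lay 30 bases before the start in Gars, 15 before it in Tars and 112 before it in the first of the 2 matches in Aars, whereas it lay just after the start in Iars and Yars and in the second match of Aars. Such a match is a description of the letters and not evidence of binding.

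In siEXOSC3, 8 of the 38 genes were decreased and 0 were increased (limma, Benjamini-Hochberg adjusted p under 0.05 over the 11242 genes tested). Over all genes tested, 15.7% were decreased and 16.7% were increased, so the decreased share of the synthetase genes, 21.1%, was near the background, and no increase was called. At an unadjusted p under 0.05, 3 genes were higher (7.89%, background 22%) and 9 were lower (23.7%, background 23.4%). With libraries centred on their medians, 1 gene was increased and 7 were decreased, beside 17.9% and 13.5% of all genes. The median log2 fold change of the 38 genes was -0.04, against -0.01 over all genes. With quantile normalization the median moved from -0.0237 to -0.044 for the cytosolic and from -0.0828 to -0.163 for the mitochondrial genes. Over all genes it moved from -0.0145 to -0.0338. With 1 library left out, the medians ran from -0.0537 to 0.0077 (cytosolic), -0.161 to -0.048 (mitochondrial) and -0.018 to -0.0104 (all genes). All 3 siEXOSC3 values lay below all 3 scramble values for 9 genes (23.7%, background 25.9%) and above them for 5 genes (13.2%, background 23.8%). The decreases were spread over both compartments, with 4 of 21 cytosolic and 4 of 17 mitochondrial genes, and the difference between compartments was not tested.

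The decreased cytosolic genes were Aars, Farsa, Lars and Tars. Aars lies on chromosome 8 (113557044 to 113581564, plus strand) of NCBIM37, the build of the mm9 alignment. It measured 246, 257 and 241 FPKM in siEXOSC3 replicates 1, 2 and 3 and 327, 314 and 329.6 in the scramble replicates. The groups were far apart and each was narrow. Aars stood at 76.7% ± 2.51 of the scramble mean (SD, n = 3), a log2 fold change of -0.38 (SE 0.0631, limma adjusted p = 0.00435). Farsa, the catalytic subunit of the phenylalanyl enzyme, lies on chromosome 8 (87380888 to 87393156, plus strand) and measured 28, 26.9 and 21.6 FPKM against 31.5, 32.5 and 36.4 in scramble. Replicate 3 was the lowest of the siEXOSC3 values. The log2 fold change of Farsa was -0.39 (SE 0.105, limma adjusted p = 0.0247), while its partner Farsb stood at 98.7% ± 2.36 of scramble (SD, n = 3, adjusted p = 0.849), with overlapping groups.

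Lars, the leucyl enzyme and a member of the multi-synthetase complex, lies on chromosome 18. It had 69, 68 and 62.4 FPKM in siEXOSC3 and 87.8, 81.1 and 81.6 in scramble, again with no overlap, and a log2 fold change of -0.33 (SE 0.0679, limma adjusted p = 0.00983). Tars lies on chromosome 15 (11313418 to 11329413, minus strand). Its values were 161, 168 and 139 FPKM against 195, 186 and 187 in scramble. The siEXOSC3 values were spread more widely than the scramble values, with replicate 3 lowest, and the log2 fold change was -0.28 (SE 0.0818, limma adjusted p = 0.0301). Cars, the cysteinyl enzyme, was also lower in all 3 siEXOSC3 libraries, at 49.1, 51.5 and 47.3 FPKM against 59.4, 52.3 and 58.6, but missed the threshold (adjusted p = 0.0648).

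The decreased mitochondrial genes were Cars2, Wars2, Yars2 and Tars2, the enzymes for cysteine, tryptophan, tyrosine and threonine. Cars2 lies on chromosome 8 (11514021 to 11550771, minus strand) and measured 6.73, 9.04 and 5.07 FPKM in siEXOSC3 against 11.2, 9.86 and 11.5 in scramble. It had the largest change among the 38 genes in this knockdown and also a wide spread, with replicate 2 near the lowest scramble value. Cars2 stood at 64% ± 18.3 of scramble (SD, n = 3), a log2 fold change of -0.61 (SE 0.165, limma adjusted p = 0.0249). Wars2 lies on chromosome 3 (98944991 to 99043109, plus strand) and measured 2.7, 2.41 and 2.45 FPKM against 3.69, 3.94 and 3.5, so that its 3 siEXOSC3 values lay close together below scramble. The log2 fold change of Wars2 was -0.42 (SE 0.0914, limma adjusted p = 0.0112), on a scale that understates changes of genes at this low level because 1 was added to each FPKM.

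Yars2, on chromosome 16 (16303058 to 16309733, plus strand), measured 21.3, 27.4 and 18.8 FPKM in siEXOSC3 and 30.6, 29.2 and 27.7 in scramble. Its replicate 2 was just under the lowest scramble value, and the call was the weakest of the 8 (log2 fold change -0.38, SE 0.124, limma adjusted p = 0.0474). Tars2, on chromosome 3 (95543899 to 95558900, minus strand), measured 20.3, 22.1 and 21.3 FPKM against 26.2, 23.9 and 27.1. Its change was small and even across replicates, to 82.5% ± 3.55 of scramble (SD, n = 3; log2 fold change -0.26, SE 0.0725, limma adjusted p = 0.0256). Tars and Tars2 were the only pair of cytosolic and mitochondrial counterparts that were both called as decreased, while Tarsl2 was not called. Neither call held under the replicate block, and leaving out single libraries kept Tars in 2 and Tars2 in 3 of 6 fits. Nars2, the asparaginyl enzyme, lay above scramble in all 3 libraries, at 8.45, 8.28 and 8.35 FPKM against 7.64, 6.2 and 6.92, without passing the test (adjusted p = 0.0592).

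The remaining 30 genes did not pass the adjusted threshold in siEXOSC3. Their log2 fold changes ran from -0.20 to 0.16 for 17 cytosolic genes and from -0.22 to 0.24 for 13 mitochondrial genes, with standard errors between 0.0584 and 0.165 over all 38. The most abundant of these were level with scramble: Gars measured 485, 482 and 497 FPKM in siEXOSC3 and Eprs 440.2, 427 and 465 FPKM, both across the scramble range. Qars measured 35.9, 31.9 and 40.9 FPKM, Tarsl2 9.06, 10.5 and 8.89 FPKM and Rars2 30.3, 35.4 and 27.3 FPKM, with overlap in each. At the low end, Ears2 measured 2.71, 2.94 and 2.11 FPKM and Pars2 1.67, 1.8 and 2.17 FPKM, again overlapping scramble.

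The number called depended on single libraries. It was 1 (Aars alone) without scramble replicate 1, 5 without scramble replicate 2, 3 without scramble replicate 3, 4 without siEXOSC3 replicate 1 and 7 without siEXOSC3 replicate 3, all decreased. The decreased share of all genes in these fits was 5.18%, 8.28%, 7.17%, 7.72% and 13.5%, lower than with all libraries as the member counts were. Without siEXOSC3 replicate 2 it was 9 decreased and 1 increased, beside 22.3% decreased and 21.2% increased over all genes. Aars was called in all 6 of these fits, Lars and Wars2 in 5 of 6, Farsa and Cars2 in 3 of 6, and Yars2 in 1 of 6. With all 6 libraries, Farsa, Cars2, Tars and Yars2 lost the call with no filter on low FPKM, and these 4 and Tars2 lost it with the replicate block. Yars2 also lost it with quantile normalization, with median centring and with no intensity trend. Aars and Lars alone passed an adjusted p of 0.01.

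In siDDX1, 5 genes were increased, all of them cytosolic, and 0 were decreased (limma, adjusted p under 0.05 over 11104 genes). The increased share was 13.2% of the 38 genes and 23.8% of the 21 cytosolic genes, beside 5.61% of all genes tested, and the decreased background was 5.03%. At an unadjusted p under 0.05, 14 members were higher (36.8%, background 15.1%), 10 of them cytosolic, and 0 were lower (background 15%). All 3 siDDX1 values lay above all 3 scramble values for 16 members (42.1%), beside 17.0% of all genes. By compartment these were 12 of 21 cytosolic genes (57.1%), the 5 called genes with Eprs, Farsb, Hars, Mars, Nars, Wars and Yars, and 4 of 17 mitochondrial genes (23.5%), which were Aars2, Fars2, Iars2 and Nars2. No member had all its siDDX1 values below scramble, beside 17.8% of all genes. The median log2 fold change was 0.17 for the cytosolic and 0.08 for the mitochondrial genes, against -0.0006 over all genes. With quantile normalization these medians were 0.0969, 0.091 and -0.00863, so the gap between compartments nearly closed. The difference between compartments was not tested.

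The 5 increased genes were Iars, Vars, Gars, Dars and Kars, the enzymes for isoleucine, valine, glycine, aspartate and lysine. Iars, a member of the multi-synthetase complex, lies on chromosome 13 (49777469 to 49829636, plus strand). It measured 148, 136 and 127 FPKM in siDDX1 replicates 1, 2 and 3 and 104, 99 and 95 in scramble. The lowest siDDX1 value was well above the highest scramble value, and Iars stood at 138% ± 10.4 of scramble (SD, n = 3), a log2 fold change of 0.46 (SE 0.0718, limma adjusted p = 0.01). Vars lies on chromosome 17 (35137932 to 35153267, plus strand) and measured 69.2, 63.4 and 70.0 FPKM against 51.7, 50.9 and 54.6. Its log2 fold change was 0.36 (SE 0.0628, limma adjusted p = 0.0137). Vars shares 5.42% of its exonic bases with D17H6S56E-5 on the other strand, a gene at 5.79 FPKM in scramble.

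Gars, on chromosome 6 (54987995 to 55029498, plus strand), rose from the highest level of all members: 632, 604 and 590.2 FPKM in siDDX1 against 499, 488 and 460.5 in scramble. Gars thus stood at 126% ± 4.41 of scramble (SD, n = 3), and its log2 fold change was 0.33 (SE 0.0724, limma adjusted p = 0.0268). Dars, on chromosome 1 (130260285 to 130313993, minus strand), belongs to the complex and measured 226, 235 and 226 FPKM against 195, 183 and 176. Its siDDX1 values were the most even of the 5 genes, and the log2 fold change was 0.31 (SE 0.0633, limma adjusted p = 0.0217). Kars, also of the complex and on chromosome 8 (114517340 to 114535223, minus strand), measured 234, 219 and 214 FPKM against 192, 188 and 185. It had the smallest change of the 5, 0.24 on the log2 scale (SE 0.0613, limma adjusted p = 0.0459). Kars lost the call with no filter on low FPKM, with quantile normalization and with no intensity trend, Gars with quantile normalization, and all 5 at an adjusted p under 0.01. Dars, Iars, Kars and Vars also lay above all scramble values in siEXOSC3, at 112, 109.9, 108 and 110.5% of scramble, with adjusted p between 0.0950 and 0.161, and both comparisons rest on the same scramble cultures.

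**Figure D2:**
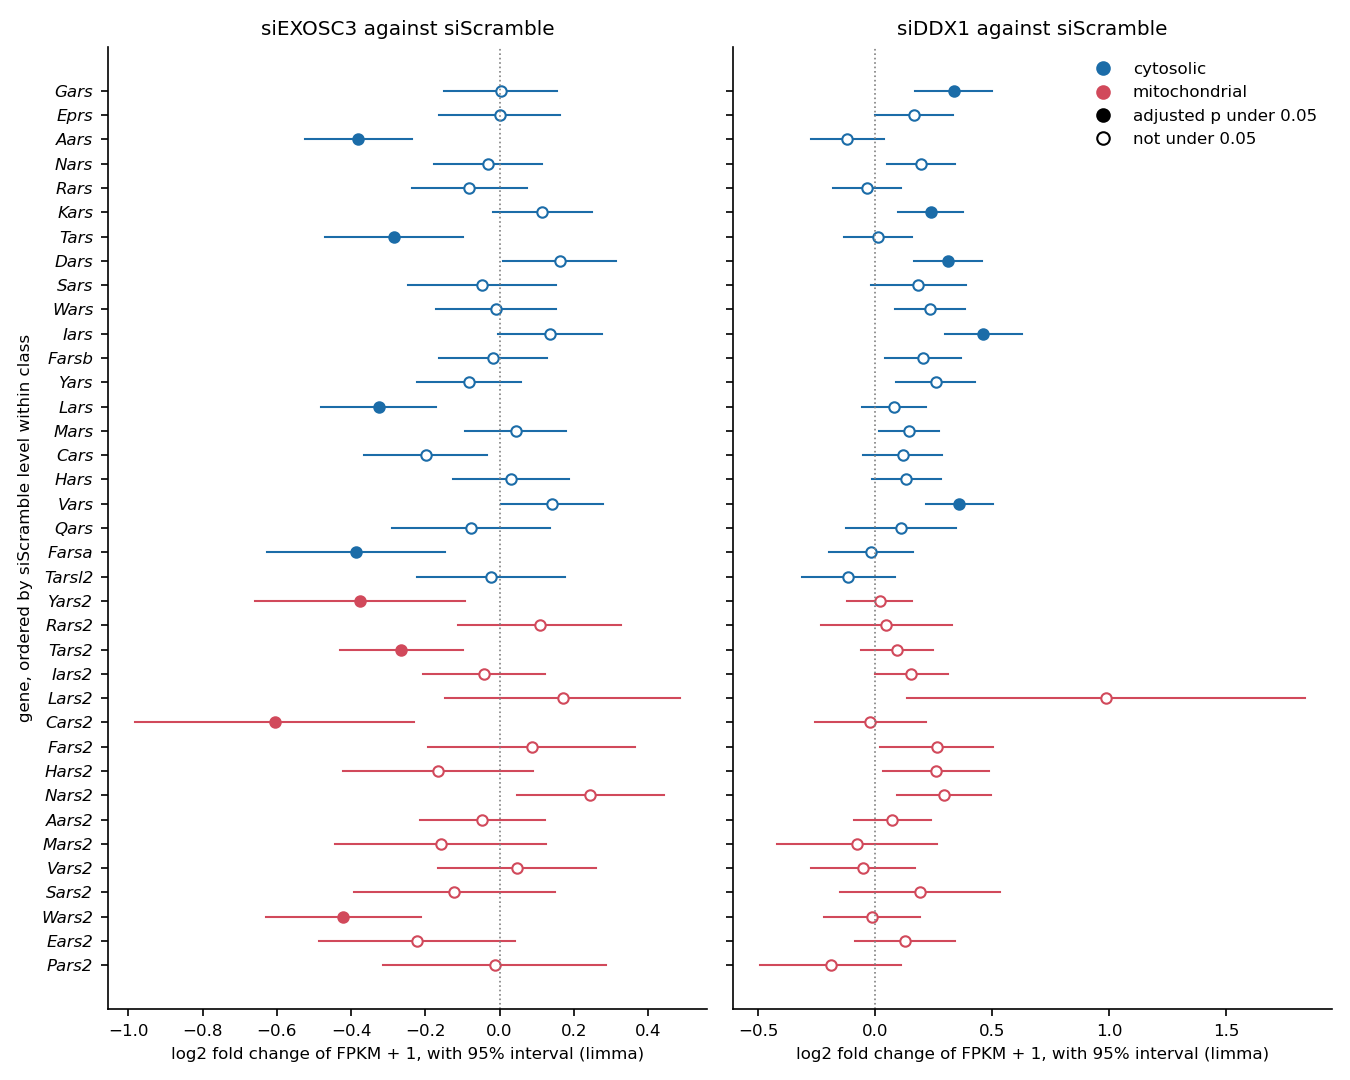
Log2 fold change of FPKM + 1 with its 95% interval (limma) for 37 of the 38 genes in siEXOSC3 (left) and siDDX1 (right), each against the scramble libraries of its own table; filled points passed an adjusted p of 0.05 and colours give the compartment. The 8 filled points on the left are all below 0, and the 5 on the right are all above 0 and all cytosolic.

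Several further cytosolic genes lay above scramble in siDDX1 without passing the test. Of these, Wars and Yars were called with median centring and with the replicate block, and Nars and Farsb with the replicate block. Wars, the tryptophanyl enzyme, measured 129, 118 and 117 FPKM against 108, 101 and 99.4 (adjusted p = 0.0555). Yars, the tyrosyl enzyme, measured 127, 116 and 109 FPKM against 99.9, 100.5 and 92.4 (adjusted p = 0.0593), and Nars, the asparaginyl enzyme, 308, 310.4 and 298 FPKM against 276, 270.1 and 254 (adjusted p = 0.0819). In each of the 3 the groups did not overlap. Farsb, at 119, 116 and 104 FPKM against 103, 98.6 and 92.9 (adjusted p = 0.0979), shares 10.8% of its exonic bases with Sgpp2 on the other strand. Mars, the methionyl enzyme, lay at 87.6, 84.6 and 90.1 FPKM against 78.7, 77.6 and 80.8 (adjusted p = 0.124), and 1.99% of its exonic bases overlap Ddit3, which was at 386 FPKM in scramble and increased in both knockdowns.

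The other abundant members did not pass the adjusted threshold in siDDX1. Eprs measured 484, 514 and 482 FPKM in siDDX1 against 453, 452 and 415 in scramble (adjusted p = 0.167), and Aars measured 293, 279 and 313 FPKM against 324, 311 and 326 (adjusted p = 0.27). Lars and Tars, both decreased in siEXOSC3, measured 86.4, 85.5 and 90.9 FPKM and 184, 185 and 200.4 FPKM here and overlapped scramble. Of the low cytosolic genes, Qars measured 46, 42.9 and 34.5 FPKM, Farsa 35.5, 30.8 and 32 FPKM and Tarsl2 8.31, 8.21 and 9.73 FPKM, each across its scramble range. The 4 cytosolic genes with a log2 fold change below 0 were Aars, Farsa, Rars and Tarsl2, and none passed the test. Over the 16 cytosolic genes not called, log2 fold changes ran from -0.12 to 0.26.

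No mitochondrial gene was called in siDDX1 by limma, with 4 of 17 at an unadjusted p under 0.05 (23.5%, beside 15.1% of all genes higher at that p): Lars2, Fars2, Hars2 and Nars2. Of these, Nars2 was called with median centring and Lars2 with the replicate block. Nars2 measured 8.22, 8.75 and 8.89 FPKM against 7.58, 6.15 and 6.84 in scramble (adjusted p = 0.0669), and Fars2, the phenylalanyl enzyme, 14.6, 13.2 and 10.7 FPKM against 10.5, 10.3 and 10.5 (adjusted p = 0.136). Hars2, a histidyl enzyme that shares 4.56% of its exonic bases with Hars on the opposite strand, measured 11.7, 11.8 and 9.72 FPKM against 10.1, 8.76 and 8.39 (adjusted p = 0.124). Both Nars2 and Fars2 were clear of the scramble values, whereas Hars2 overlapped them. The mitochondrial genes called in siEXOSC3 all overlapped scramble here, with Yars2 at 29.3, 29.6 and 29 FPKM, Tars2 at 28.5, 26.4 and 26.9 FPKM, Cars2 at 12, 10.6 and 9.24 FPKM and Wars2 at 3.81, 3.78 and 3.31 FPKM. Rars2 measured 24.7, 28.2 and 35.9 FPKM, Ears2 3.22, 3.67 and 3.7 FPKM and Pars2 1.27, 1.54 and 1.79 FPKM, all overlapping scramble. Over the 17 mitochondrial genes, log2 fold changes in siDDX1 ran from -0.19 (Pars2) to 0.99 (Lars2).

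Lars2, the mitochondrial leucyl enzyme, had the largest estimate and the largest spread in siDDX1. It measured 67.9, 39.4 and 19.2 FPKM in siDDX1 replicates 1, 2 and 3 and 21.9, 17.2 and 16.3 in the scramble replicates. Replicate 1 was the highest of all 6 libraries, and replicate 3 fell within the scramble range. The log2 fold change was 0.99 with an SE of 0.371 (limma adjusted p = 0.119), and without siDDX1 replicate 3 it was 1.45 with an adjusted p of 0.000949. Without siDDX1 replicate 1 it was 0.56, and Lars2 was not called in 5 of the 6 fits that left out a library. It was called as increased with the replicate block and in none of the other alternatives on all 6 libraries. The same siDDX1 libraries also differed in their FPKM totals, which were 893687, 848242 and 738926. The share taken by Rmrp, a small noncoding RNA, was 17.3%, 15.4% and 11.9%. Scramble totals were 731251, 745839 and 692933, with Rmrp at 13.1%, 14.3% and 12.7%. The siEXOSC3 libraries fell in the same order, with totals of 779283, 739880 and 703369 and Rmrp at 15.5%, 14.4% and 10.1%. The part of these differences in the values of Lars2 and of the other synthetase genes was not tested. In siEXOSC3, Lars2 measured 25.4, 19 and 19 FPKM against 22.1, 17.4 and 16.5 in scramble, with overlap.

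The siDDX1 count also depended on single libraries. It was 1 without scramble replicate 1 or scramble replicate 2 (Iars in both fits), 0 without scramble replicate 3, and 2 (Iars and Vars) without siDDX1 replicate 1 or siDDX1 replicate 2. Without siDDX1 replicate 3 it was 15, made up of 11 cytosolic and 4 mitochondrial genes, all increased. The share of all genes called as increased moved in the same way, from 0.865% without scramble replicate 3 to 16.4% without siDDX1 replicate 3. The median log2 fold change of the cytosolic genes lay between 0.148 and 0.215 over these 6 fits, and at 0.0969 with quantile normalization of all 6 libraries.

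**Figure D3:**
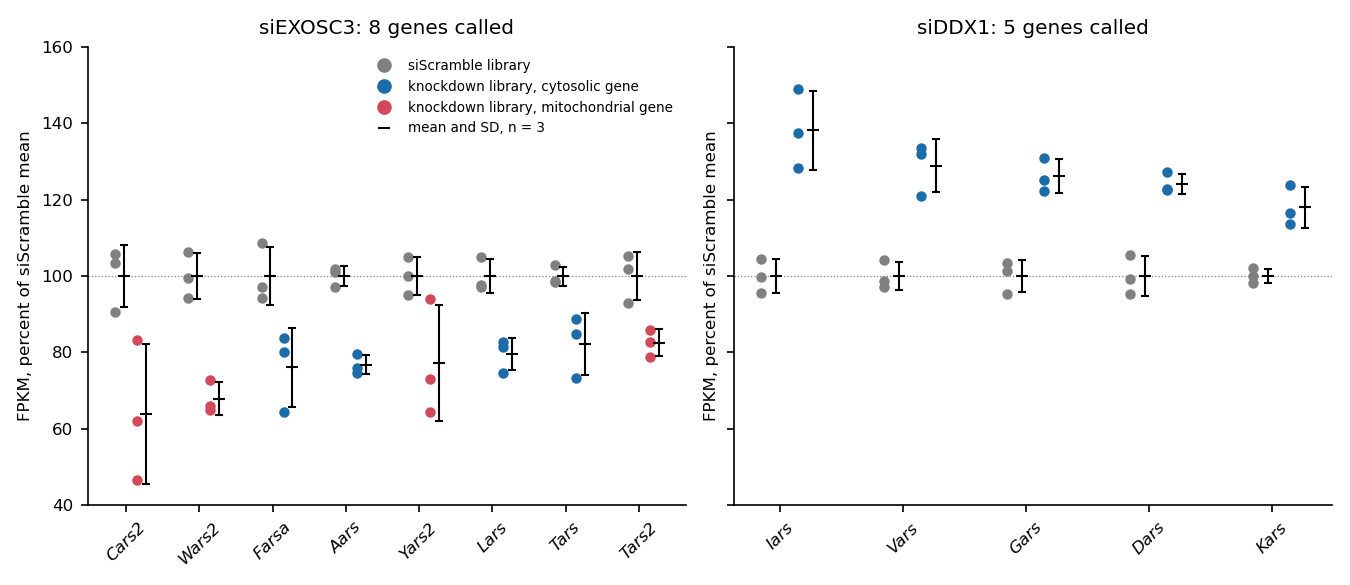
FPKM in each library as a percentage of the scramble mean of the same table for the 8 genes called in siEXOSC3 (left) and the 5 called in siDDX1 (right); grey points are scramble libraries, coloured points knockdown libraries, and bars the mean and SD of 3. The knockdown points of each gene lie on the same side of its scramble points, with the widest spread for Cars2.

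The 8 cytosolic enzymes that assemble into the multi-synthetase complex (Eprs, Iars, Lars, Mars, Qars, Rars, Kars and Dars) were compared with the 13 other cytosolic genes. In siDDX1, 3 of the 8 (37.5%) and 2 of the 13 (15.4%) were increased, beside 5.61% of all genes, with median log2 fold changes of 0.15 and 0.18. Summed over the complex, FPKM was 114.6, 115.4 and 111.3% of the scramble mean in siDDX1 replicates 1, 2 and 3, and summed over the 13 others it was 115.5, 111.4 and 110.8%. The scramble libraries lay between 96.2 and 103.8% for the complex and between 97.6 and 102.6% for the others, so that both sums were above scramble by a like amount. In siEXOSC3, 1 of the 8 (Lars, 12.5%) and 3 of the 13 (Aars, Farsa and Tars, 23.1%) were decreased, both near the 15.7% of all genes. The complex sum was 101.7, 100.6 and 102.1% of scramble, inside the scramble range, and the sum of the others was 93.5, 93.0 and 92.7%, below all scramble libraries. Without Aars and Tars, the sum of the other 11 was 98.5, 96.6 and 99.4%, overlapping the scramble libraries at 96.8 to 102.8%.

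The mitochondrial sum was 95.2, 98.5 and 86.8% of scramble in siEXOSC3 and 129.8, 115.5 and 109.5% in siDDX1, where the order of the replicates followed Lars2. Leaving Lars2 out gave 91.1, 98.1 and 85.3% in siEXOSC3 and 106.1, 105.8 and 110.1% in siDDX1, against 95.4 to 102.4% in the scramble libraries. The siDDX1 sum of the other 16 genes was therefore still above scramble in all 3 libraries. It lay below both cytosolic sums, but in replicate 3 it was close to them (110.1% against 111.3 and 110.8%). The difference was not tested.

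**Figure D4:**
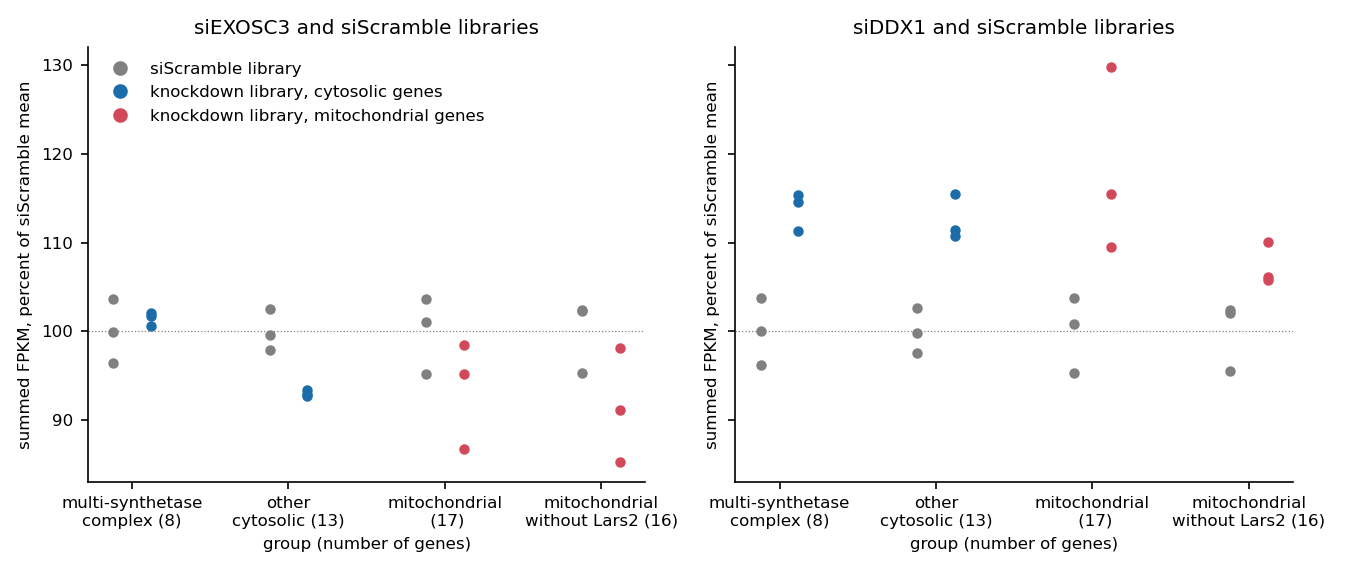
Summed FPKM of 4 groups of synthetase genes in each library, as a percentage of the scramble mean of the same table, for siEXOSC3 (left) and siDDX1 (right); each point is a library. Both cytosolic sums are above all scramble points in siDDX1, the other cytosolic sum is below them in siEXOSC3, and the mitochondrial points of siDDX1 draw together when Lars2 is left out.

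The enzymes fall into structural class I, with a Rossmann fold, and class II, with an antiparallel sheet. In siEXOSC3, 1 of 9 cytosolic class I genes and 3 of 11 class II genes were decreased (11.1% and 27.3%), and 3 of 9 and 1 of 8 of the mitochondrial ones (33.3% and 12.5%), beside 15.7% of all genes. In siDDX1, 2 of 9 cytosolic class I genes and 3 of 11 class II genes were increased (22.2% and 27.3%), and 0 of 9 and 0 of 8 of the mitochondrial ones, beside 5.61% of all genes. Eprs holds both and was left out of this split.

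The 12 cytosolic genes often listed as ATF4 targets (Aars, Cars, Eprs, Gars, Iars, Lars, Mars, Nars, Sars, Tars, Wars and Yars) were set beside the 9 others. In siDDX1, 2 of the 12 (Gars and Iars) and 3 of the 9 (Dars, Kars and Vars) were increased (16.7% and 33.3%, beside 5.61% of all genes), with medians of 0.17 and 0.13 on the log2 scale. In siEXOSC3, 3 of the 12 (Aars, Lars and Tars) and 1 of the 9 (Farsa) were decreased (25% and 11.1%, beside 15.7% of all genes), with medians of -0.04 and -0.02. The 5 genes found with the ATF core thus include 2 that were increased in siDDX1 (Gars and Iars) and 2 decreased in siEXOSC3 (Aars and Tars). Yars, the last of them, was called in neither. Promoters were given for 14 of the 21 cytosolic genes, so a gene not named here may lack a match or a promoter entry. Atf4 itself measured 814 ± 21.5 FPKM in siDDX1 against 789 ± 26.3 in scramble (SD, n = 3 each; log2 fold change 0.04, limma adjusted p = 0.743). In siEXOSC3 it measured 688 ± 66.7 FPKM against 797 ± 25.2 (SD, n = 3 each; -0.22, adjusted p = 0.0913). Its siEXOSC3 values all lay below the scramble values, whereas its siDDX1 values overlapped them.

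The list of the amino acid response holds ATF4, its known targets, amino acid transporters and Eif2ak4. Among its 25 tested genes, 6 were increased (24%, beside 5.61% of all genes) and 0 decreased in siDDX1 by limma. At an unadjusted p under 0.05, 9 were higher and 1, Eif2ak4, was lower (36% and 4%, beside 15.1% and 15% of all genes). In siEXOSC3, 3 were increased (12%, beside 16.7%) and 6 decreased (24%, beside 15.7%), with 3 higher and 12 lower at an unadjusted p under 0.05 (12% and 48%, beside 22% and 23.4% of all genes). The median log2 fold changes of the list were 0.13 and -0.18. In siDDX1 the increased genes were Ddit3, Ddit4, Asns, Aldh1l2, Atf5 and Slc3a2. Asns, which makes asparagine, rose from 450.0 ± 14.4 to 573 ± 32.5 FPKM (SD, n = 3; log2 fold change 0.35, limma adjusted p = 0.0264), and Ddit3, a stress transcription factor, from 383 ± 29.6 to 571 ± 109.8 FPKM (SD, n = 3; 0.56, adjusted p = 0.042). In siEXOSC3, Slc7a11, the cystine transporter, fell from 18.4 ± 1.71 to 10.4 ± 2.51 FPKM (SD, n = 3; log2 fold change -0.78, adjusted p = 0.00877), and Shmt2, Psph and Slc7a1 fell with log2 fold changes of -0.37, -0.36 and -0.33. Ddit3 and Ddit4 rose in the same libraries, by 0.61 and 0.52 on the log2 scale.

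Genes that work beside the synthetases were counted in 5 lists, against 16.7% of all genes increased and 15.7% decreased in siEXOSC3 and 5.61% and 5.03% in siDDX1. In siEXOSC3 and siDDX1 their median log2 fold changes were -0.18 and 0.19 for the 5 scaffolds and relatives, -0.09 and 0.01 for 8 genes of quality control and amidotransferase, and -0.15 and -0.06 for the 5 genes of the selenocysteine route. They were -0.08 and 0.21 for 9 delivery factors and -0.18 and 0.01 for 11 genes of mitochondrial tRNA processing. Of 5 scaffolds and relatives, Aimp2, a scaffold of the complex, was decreased in siEXOSC3 (82.3% ± 10.2 of scramble, SD, n = 3; limma adjusted p = 0.0474) and increased in siDDX1 (119% ± 6.08; adjusted p = 0.0442). Aarsd1, an editing protein related to Aars, was increased in siDDX1 (125% ± 5.11; adjusted p = 0.0224). Of 8 genes of quality control and amidotransferase, 1 was called: Qrsl1, a subunit of the mitochondrial amidotransferase that provides glutaminyl-tRNA, measured 9.72, 8.94 and 7.37 FPKM in siEXOSC3 against 14.6, 13.3 and 12.9 in scramble (log2 fold change -0.60, SE 0.103, adjusted p = 0.00489). None of the 5 genes of the selenocysteine route, Sars included, was called by limma in either knockdown, with 1 lower in siEXOSC3 and 1 higher and 1 lower in siDDX1 at an unadjusted p under 0.05.

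Of 9 factors that deliver charged tRNA or move the ribosome, siEXOSC3 had 1 increased (11.1%) and 2 decreased (22.2%) and siDDX1 had 2 increased (22.2%). Eef1d, an exchange factor of the cytosolic elongation factor, was decreased in siEXOSC3 (log2 fold change -0.36, limma adjusted p = 0.00472) and increased in siDDX1 (0.28, adjusted p = 0.0344). Gfm2, a mitochondrial recycling factor, was increased in both (0.34 and 0.21), and Gfm1, the mitochondrial elongation factor G, was decreased in siEXOSC3 (-0.31). Of 11 genes of mitochondrial tRNA processing, 4 were decreased (36.4%, beside 15.7% of all genes) and 1 increased (9.09%, beside 16.7%) in siEXOSC3, and 1 was decreased in siDDX1 (9.09%, beside 5.03%). Trmt10c, a subunit of mitochondrial RNase P, was decreased in both, to 76.3% ± 6.48 of scramble in siEXOSC3 and 79.8% ± 7.28 in siDDX1 (SD, n = 3 each; adjusted p = 0.0075 and 0.0327). Trnt1, which adds the CCA end of tRNA, Elac2, which trims the 3′ end, and 1110008L16Rik were decreased in siEXOSC3 (-0.37, -0.34 and -0.33 on the log2 scale), while Trmu, a tRNA thiolation enzyme, was increased (0.29).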

How the data were processed

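RNA-seq of N2A cells was carried out with 3 libraries each of scramble, siEXOSC3 and siDDX1. The authors aligned reads to mm9 with TopHat version 2.1.0, used SAMtools, and ran Cuffdiff version 2.2.1 for each knockdown against scramble. The FPKM were deposited in 2 tables, each listing 24318 genes for 6 libraries. The gene annotation and library normalization used by Cuffdiff are not given in the sources used here.

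The values were put on a log2(FPKM + 1) scale, and genes whose mean in a table reached 1 FPKM were kept, which held for all 38 synthetase genes. They were tested with limma version 3.58.1 (lmFit, then eBayes with an intensity trend, without covariates) in R version 4.3.3. P-values were two-sided and Benjamini-Hochberg adjusted over all genes tested, with a threshold of 0.05. The smallest two-sided exact permutation p that such a design allows is 0.1. FPKM is not a count, so no count model was used and no interval from counts is given. On simulated data with 200 genes changed by a log2 fold change of 1, the fit called 189 of them in the siEXOSC3 design (11242 genes) and 178 in the siDDX1 design (11104 genes), 0 with the wrong sign, beside 10 and 8 false calls. With a log2 fold change of 0.4, nearer to the changes reported here, it called 43 and 56 of 200, beside 2 and 2 false calls. Far more genes were called in the real fits, 1877 increased and 1767 decreased in siEXOSC3 and 623 and 559 in siDDX1. The Benjamini-Hochberg adjustment depends on how many genes change, so the simulated shares do not give the sensitivity of the reported fits.

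Values in every library are given for each synthetase gene called and for the 3 highest and 3 lowest of each compartment by scramble level; from each other list, up to 6 called genes by size of change were taken. Uncalled synthetase genes beyond these (such as Lars2, Nars2 and Wars) were named after their values had been seen. The members, lists and tests were chosen with earlier results of these data known. Positions and exon overlaps came from GENCODE vM1 on NCBIM37, the sequence of mm9, and promoters from RefSeq on GRCm38.p6, with Mars matched as Mars1. Alternatives were a pseudocount of 0.1, no filter, a mean of at least 5, quantile normalization, median centring, no intensity trend, an adjusted p under 0.01, a replicate block and leaving out each library. The mitochondrial sum without Lars2 and the sum outside the complex without Aars and Tars were added after seeing the data. 1 of the 38 genes enters the counts, medians and sums but is not reported here by itself. Figures were drawn with matplotlib version 3.10.9.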

Additional observations from a re-analysis of the deposited data

Results flagged for a closer look

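For 10 of the 38 genes all siEXOSC3 libraries lay below the scramble mean of their table and all siDDX1 libraries lay above it, which held for 463 of the 11054 genes tested in both tables (4.19%). The reverse order was found in 0 of the 38 genes and 459 of all genes (4.15%). The difference between the knockdowns was not tested, and both comparisons use the same scramble cultures. Log2 fold changes in siEXOSC3 and siDDX1 were as follows for the cytosolic genes: -0.33 and 0.08 for Lars, -0.20 and 0.12 for Cars, -0.082 and 0.26 for Yars, and -0.030 and 0.20 for Nars. For the mitochondrial genes they were -0.38 and 0.02 for Yars2, -0.26 and 0.09 for Tars2, -0.22 and 0.13 for Ears2, -0.16 and 0.26 for Hars2, -0.047 and 0.07 for Aars2, and -0.043 and 0.15 for Iars2. Of these, Lars, Yars2 and Tars2 passed the test in siEXOSC3 and none passed in siDDX1. Groups of 3 libraries are too small for a test of single outlying libraries, and none was run.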

How the results depend on the processing

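The 8 decreased genes of siEXOSC3 became 4 with no filter on low FPKM (1299 of 17015 genes decreased over all), 3 with the replicate block and 2 at an adjusted p under 0.01 (4.27% of all genes), and ranged from 1 to 9 when a library was left out. The 0 increased genes became 1 (Nars2) with median centring and ranged from 0 to 1 when a library was left out. The 5 increased genes of siDDX1 became 4 with no filter or no intensity trend, 3 with quantile normalization (5.21% of all genes), 8 with median centring (6.73%), 10 with the replicate block and 0 at an adjusted p under 0.01 (0.901%), and ranged from 0 to 15 when a library was left out. Under the replicate block, 9.42% of all genes were decreased in siEXOSC3 and 9.77% increased in siDDX1. The cause of these shifts was not tested. Deviations of log2 values from the group mean, over genes, correlated between same-numbered libraries by 0.0346, -0.31 and -0.126 in siEXOSC3. In siDDX1 they correlated by -0.0121, 0.379 and 0.372. For siDDX1 replicates 2 and 3 with scramble replicates 3 and 2 they correlated by -0.376 and -0.372. The other differently numbered pairs of siDDX1 lay between -0.155 and 0.153. The main fit did not take the numbers as pairs, and the replicate block is the alternative that does. Over the 38 genes in both comparisons and all alternatives, 922 values kept direction and call, 66 lost a call, 21 gained one (18 of these in siDDX1, all increases), 0 called values changed sign and 47 uncalled values near 0 did, with log2 fold changes up to 0.0966 in size. Exosc3 and Ddx1 kept direction and call throughout. Absolute depth is unknown, so the counting error of the lowest genes, such as Pars2, cannot be given.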
